A study of Mus musculus with 6 samples.

Results

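The regions described here are 4996 intergenic intervals on the mouse autosomes, each centred on an L1Md_T element, from a ChIP-seq experiment on the chromatin protein PHF13 in testis. They were picked from the authors' list of 39096 regions in build mm10 by 4 conditions. The region had to lie on chromosomes 1 to 19, be annotated as intergenic, have L1Md_T as the repeat at its centre, and lie within 500 kb of a transcription start site (TSS). They made up 12.8% of the list (Wilson 95% interval 12.5 to 13.1%) and 25.2% of its 19819 autosomal regions. They covered 6.49 Mb, which was 11.5% of the base pairs in the list. No measured value was used to choose them.

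All 6 libraries came from testis of C57Bl/6 mice at 5 weeks of age. PHF13 is called SPOC1 in the library names, and 3 libraries are SPOC1 ChIP and 3 are input. Among the ChIP libraries 2 are labelled Phf13-/- and 1 wild type, while among the inputs 1 is labelled Phf13-/- and 2 wild type. The ChIP and the input of animal D821 carry different genotype labels, so genotype formed no group. One list serves the whole series and holds no value for any library. No replicate error, depth or comparison of ChIP with input could be given, and no test was run, because regions are not replicates. Whether the regions mark PHF13 itself was not tested. The intervals around shares and medians of regions cover counting error only and treat regions as independent.

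L1 elements are retrotransposons that copy themselves through an RNA and insert the copy elsewhere in the genome. A complete mouse L1 is several kilobases long and carries, in order, a promoter built of tandem units called monomers, an open reading frame for an RNA-binding protein and one for the endonuclease and reverse transcriptase. Most copies are cut short at the promoter end. L1Md_T and L1Md_A are young families that still hold many complete copies, and in the male germ line such elements are silenced by DNA methylation, repressive histone marks and PIWI proteins with their piRNAs. PHF13 carries a PHD finger, a domain that binds methylated histone H3.

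The L1Md_T regions were short for the most part, and their number did not fall evenly with length. Their median length was 786 bp, with quartiles of 500 and 1438 bp, and the range was 500 to 10693 bp. Exactly 500 bp was the length of 1517 regions (30.4%), and a further 1622 (32.47%) measured up to 1000 bp. Over 1000 and up to 2000 bp there were 931 (18.6%), up to 4000 bp 642 (12.8%), up to 6000 bp 261 (5.22%), and 23 were longer. The shortest length above 500 bp was 625 bp, for L1Md_T as for L1Md_A, so no length fell in between. The sources used here do not give the settings with which regions were found.

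Among the longer regions the counts rose at several lengths. In bins of 250 bp L1Md_T had 112 regions from 1750 bp and 145 from 2000 bp, and then 24 from 3500 bp and 54 from 3750 bp. At the longest of these rises there were 17 L1Md_T regions from 5000 bp, 36 from 5250 bp, 60 from 5500 bp and 33 from 5750 bp. Beyond it the counts dropped to 15 from 6000 bp, 5 from 6250 bp and 1 from 6500 bp. The L1Md_A regions chosen by the same conditions numbered 3344. Their counts over the 4 bins from 5000 bp were 21, 13, 11 and 5, and only 1 of them was 6000 bp or longer. L1Md_A regions had the earlier rises too, with 64 from 1750 bp and 125 from 2000 bp, and 32 from 3500 bp and 58 from 3750 bp. Of the L1Md_T regions 3.38% were longer than 5000 bp, against 1.53% of L1Md_A regions and 1.48% of all other autosomal regions. These 14823 other regions include the 3344 L1Md_A regions, 1692 L1Md_T regions in introns and 999 intergenic L1Md_T regions beyond 500 kb from a TSS. Of the 220 among them longer than 5000 bp, 51 were these L1Md_A regions, 81 intronic L1Md_T regions and 41 L1Md_T regions beyond the limit. The differences between the families were not tested.

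**Figure D1:**
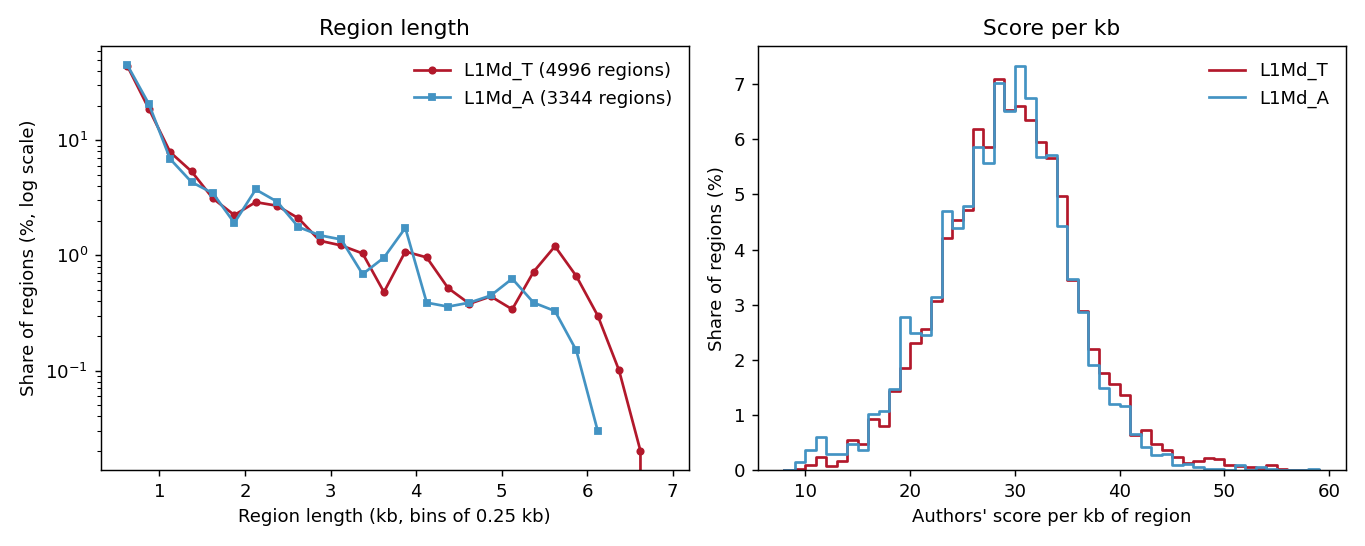
Left, share of regions (%, log scale) by length in bins of 0.25 kb for the 4996 L1Md_T and the 3344 L1Md_A regions; right, share of regions by the authors' score per kb in steps of 1. The L1Md_T curve has a rise at 5500 to 5750 bp with 60 regions, where L1Md_A has 11, while the curves of score per kb lie almost on each other with medians of 29.5 and 29.1.

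The longest regions show how far 1 interval could extend. The longest, of 10693 bp, lay on chromosome 10 (106391983 to 106402676), 73.0 kb upstream of Ppfia2, a liprin scaffold protein of synapses, and its score of 365.5 was also the highest of the 4996. The next, of 8592 bp, lay on chromosome 18 (29195840 to 29204432), 242.1 kb upstream of the noncoding gene 4930527G23Rik, with a score of 288.2. These were the only 2 longer than 7000 bp. The remaining 3 of the 5 longest measured 6516 bp near Vmn2r12, a vomeronasal receptor, 6480 bp near Nr5a2, a nuclear receptor, and 6467 bp near Olfr923, an olfactory receptor.

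The score of a region is the authors' own value, in a unit that the file does not state. It grew with length, so it was divided by the length and is given as score per kb. The L1Md_T regions were narrowly spread on that scale: the median was 29.5 (95% interval 29.3 to 29.7), the quartiles were 25.3 and 33.4, and the range was 9.76 to 55.3. Between 20 and 40 per kb lay 4418 regions (88.4%), 332 (6.65%) lay under 20, and 246 (4.92%) lay at 40 or above. In all, 4749 of them (95.1%) were at or above the list's median score per kb of 19.12, a median that includes all regions off the autosomes. The lower quartile of all other autosomal regions was 22.26 per kb, so most of those also lay above that median. Longer regions had a somewhat higher score per kb, with a rank correlation with length of 0.29 over the 4996 regions. The medians were 27.2 at 500 bp, 28.7 above that and up to 1000 bp, 30.9 up to 2000 bp, 31.4 up to 4000 bp, 32.3 up to 6000 bp and 32.6 for the longest.

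Measured this way the L1Md_T regions stood close to the other young family and to the rest of the autosomes. L1Md_A regions had a median of 29.1 per kb (28.9 to 29.4), which put L1Md_T higher by 0.02 on the log2 scale. L1Md_T was the higher of the families in each of the 5 length bins up to 6000 bp, by 0.02 to 0.05, and in 11 of 19 autosomes. Above 6000 bp there was only 1 L1Md_A region. All other autosomal regions, which include L1Md_A and the remaining L1Md_T regions, had a median of 28.4 per kb (28.1 to 28.4). The L1Md_T regions described here were higher by 0.05 on the log2 scale. That difference was 0.17 among regions of 500 bp and had the opposite sign, -0.01, in both bins from above 1000 to 4000 bp. L1Md_T regions inside introns, of which the autosomes held 1692, had a median of 29.7 per kb. The 999 intergenic L1Md_T regions beyond 500 kb from a TSS had 29.5.

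A region of fixed length shows the spread that remains. The 1517 L1Md_T regions of 500 bp had scores from 4.88 to 27.2, with a median of 13.6 and quartiles of 11.7 and 15.9. Their SD was 3.46. All scores of the list under 10 fell within 0.005 of a multiple of 0.2124. If such a step were 1 sequenced tag, the mean 500 bp region would hold 65.0 tags, counting alone would give an SD of 1.71 in score units, and the observed variance would be 4.09 times the mean count. On the same reading the median score of all L1Md_T regions, 22.9, would be 108 tags (95% Poisson interval 88.6 to 130.4). The sources used here do not say whether a step is 1 tag.

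The highest scores per kb came from short regions and the highest scores from long ones. In the order of score per kb, the first lay on chromosome 6 (103066877 to 103068243), 273.2 kb from the microRNA gene Mir6373, with 55.3. The second, with 54.4, lay on chromosome 4 (67234252 to 67235005), 406.8 kb from Tlr4, the receptor for bacterial lipopolysaccharide. The third, also 54.4, lay on chromosome 11 (40415149 to 40415972), 277.1 kb from Mat2b, a regulatory subunit of the enzyme that makes S-adenosylmethionine. The nearest genes of the next 7 were Elavl2, an RNA-binding protein of neurons (54.4), Phf3, a PHD finger protein (54.3), Epha7, an ephrin receptor (54.0), 1700008P02Rik (53.3), Sel1l, which acts in protein degradation at the endoplasmic reticulum (53.0), Cdyl, a chromodomain protein (53.0), and Tfap2b, a transcription factor (52.6). Of these 10 regions 8 were at most 1000 bp long, and 8 lay downstream of the TSS at 236.0 to 431.6 kb. The 10 highest scores all belonged to regions longer than 5000 bp, whose score per kb was 33.5 to 42.3. Among these, the region 24.6 kb upstream of Fbxw28, an F-box protein gene, on chromosome 9 (109361260 to 109367306) had a score of 255.7 and the highest score per kb of the 10. The others lay near Olfr1154, an olfactory receptor (221.5), the cadherin Cdh20 (219.2), Mir466 (217.7), G630055G22Rik (215.5), Ankrd7 (213.0), the glycosyltransferase Galnt13 (212.2) and 9530002B09Rik (211.3).

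The lowest scores per kb were 9.76 near Ctnnd2, a catenin of synapses, 10.03 near 1700027H10Rik and 10.2 near B3gat1, a glucuronyltransferase. These regions were 500 to 763 bp long.

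The distances between L1Md_T regions were either short or long, and few lay in between. The median distance from the centre of one to the centre of the next nearest was 3826 bp. Within 5 kb of another L1Md_T region lay 2735 of them (54.7%), and only 128 (2.56%) had the nearest at 5 to 10 kb. Another 530 had it at 10 to 50 kb, and 1603 (32.1%) had none within 50 kb. The upper quartile was 89.3 kb. L1Md_A had the same arrangement, with 53.1% within 5 kb and 1.94% at 5 to 10 kb. No 2 regions lay closer than 500 bp end to end, so closer intervals do not occur as separate regions in the set.

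Consecutive centres lay more often at some distances than at others. In bins of 250 bp, 207 pairs lay 1250 to 1500 bp apart and 194 lay 1500 to 1750 bp apart. This first rise lies just above the lowest centre distance, 1007 bp, which is limited by the shortest length and the shortest gap, 500 bp each. The count went down to 93 from 2000 bp and came to a second rise of 178 from 3000 bp and 141 from 3250 bp, before it dropped to 70, 41 and 32 in the next 3 bins. L1Md_A, the smaller set with 3344 regions against 4996, had the first rise, with 157 pairs from 1500 bp. It had 75 and 52 pairs at the place of the second. Where the nearest region of the whole list was within 5 kb of an L1Md_T region, it was itself centred on L1Md_T in 94.8% of 2862 cases, on L1Md_A in 1.89% and on L1Md_Gf in 0.699%. Beyond 5 kb it was L1Md_T in 39.0% of 2134 cases, L1Md_A in 26.9% and the endogenous retrovirus IAPEz-int in 7.92%.

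**Figure D2:**
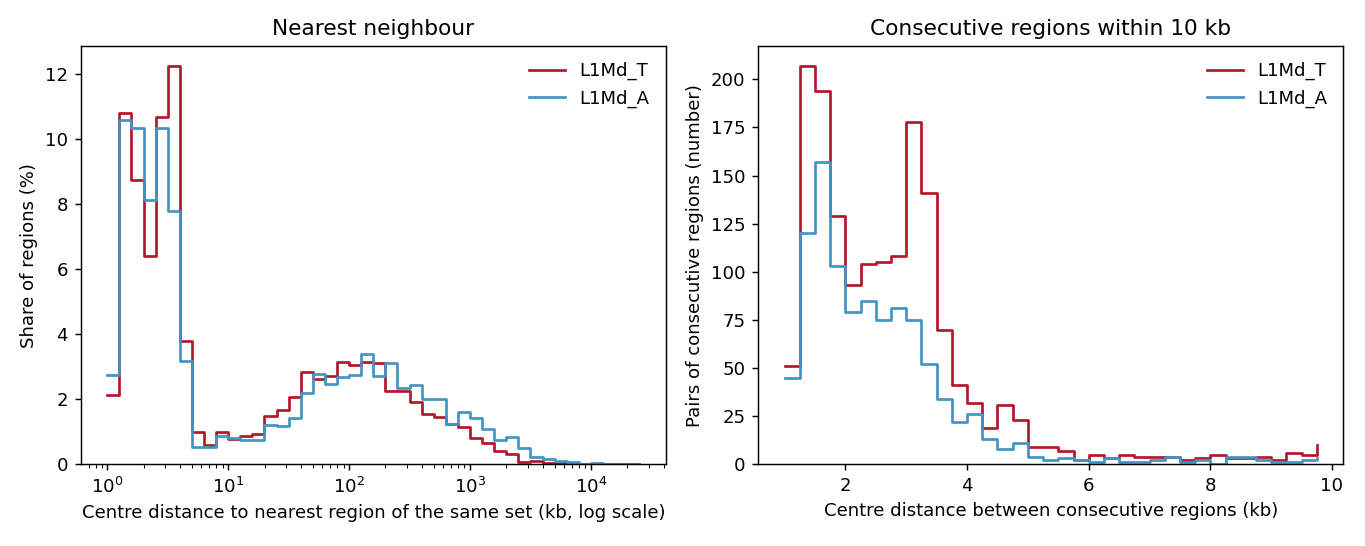
Left, share of regions by the centre distance to the nearest region of the same set (kb, log scale); right, number of consecutive pairs by centre distance in bins of 0.25 kb, for L1Md_T and L1Md_A. In L1Md_T 54.7% of the regions have a neighbour within 5 kb and 2.56% have the nearest at 5 to 10 kb, and the rise near 3 kb, with 178 pairs in 1 bin, has 75 in L1Md_A. Numbers of pairs are not scaled to the sizes of the sets, 4996 and 3344 regions.

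To count places and not intervals, L1Md_T regions whose neighbouring centres lay at most 5 kb apart were joined into groups, a distance chosen after the spacing had been seen. The 4996 regions formed 3470 groups, or 1.44 regions per group. A lone region made up 2261 groups (65.2%), 933 (26.9%) held 2 regions, 245 (7.06%) held 3, 25 held 4, and 6 held 5 to 8. Only 2 of the 1209 groups with 2 or more regions enclosed another region of the list. Regions in such groups had a median of 30.1 per kb (quartiles 26.1 and 34.2), and lone regions 28.7 (24.3 and 32.4).

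The span of a group, from the first start to the last end, rarely passed 6500 bp. Of the groups with 2 or more regions, 1170 (96.8%) spanned at most 6500 bp, and 96.8% of those of L1Md_A did. The joining distance itself limits the span of 2 short regions, and with 10 kb the L1Md_T share was 90.98%. Groups of 2 had a median span of 4101 bp (quartiles 2698 and 5370 bp) and groups of 3 had 5358 bp (4736 and 5713 bp). In bins of 500 bp, all groups together numbered 163 from 4500 bp, 264 from 5000 bp, 311 from 5500 bp, 56 from 6000 bp and 10 from 6500 bp. L1Md_A groups numbered 167, 147, 76, 23 and 9 in the same bins. From 2000 bp, where both families had an earlier rise, there were 238 L1Md_T and 223 L1Md_A groups. Spans above 5000 and up to 6500 bp were found in 631 of 3470 L1Md_T groups (18.2%) and in 245 of 2358 L1Md_A groups (10.4%). That difference of 7.79 percentage points was 3.14 with a joining distance of 3 kb and 7.86 with 10 kb. Lone L1Md_T regions dropped from 92 at 5500 bp to 19 at 6000 bp and 1 at 6500 bp. Their span is the length of 1 region, but the joining distance sets which regions are lone. Within groups of 2 or more the regions covered a median of 62.0% of the span. In the 308 groups of 2 with spans in that range, the longer region measured 2948 bp, the shorter 948 bp and the gap between them 1099 bp at the median. The list gives neither the strand nor the ends of the elements, so the covered part could not be assigned to the promoter or a reading frame. The sources used here do not give how reads that match several copies were placed, and the part of read placement in the gaps was not tested.

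**Figure D3:**
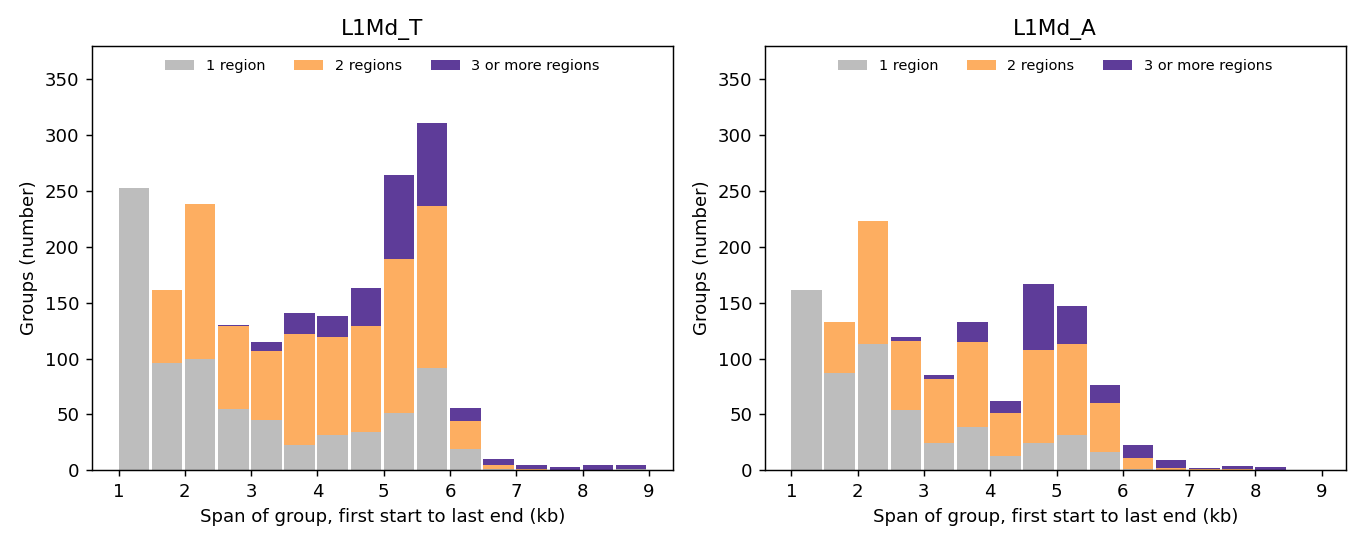
Number of groups by span (kb, bins of 0.5 kb) for L1Md_T, left, and L1Md_A, right, stacked by whether a group holds 1, 2 or at least 3 regions; groups that span under 1 kb, 1458 for L1Md_T and 1004 for L1Md_A, and those of 9 kb or more are left out. L1Md_T groups pile up at 5.5 to 6 kb with 311 groups and drop to 56 in the next bin, while L1Md_A groups number 76 at 5.5 to 6 kb and are most numerous at 2 to 2.5 kb with 223. Numbers are not scaled to the totals of 3470 L1Md_T and 2358 L1Md_A groups.

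The largest group held 8 regions over 20721 bp on chromosome 4 (90971269 to 90991990), nearest to Elavl2. Its regions measured 500 to 2198 bp and scored 15.5 to 71.4, summing to 305.9. The score per kb inside the group ran from 22.4 to 54.4. A group of 6 over 12289 bp on chromosome 15 (22686511 to 22698800) lay nearest to the predicted gene Gm5803, with a summed score of 177.5. Next came a group of 5 on chromosome 17 (38891531 to 38903418) nearest to Esp24, a member of the exocrine gland-secreted peptides that act as pheromones, with 231.4. Other groups of 5 lay nearest to Mir6414, A530053G22Rik and Reln, the gene of the matrix protein reelin.

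Every autosome carried L1Md_T regions, at 2.03 ± 0.38 per Mb (SD, n = 19). Chromosome 6 carried the most per Mb, 2.62, and chromosome 11 the fewest, 1.16, followed by chromosome 19 with 1.36. L1Md_A regions averaged 1.36 ± 0.267 per Mb and were fewer than L1Md_T regions on all 19 autosomes. The ratio of L1Md_T to L1Md_A regions ran from 1.22 on chromosome 3 to 1.84 on chromosome 6. As a share of each chromosome's regions, L1Md_T was lowest on chromosome 16 (21.2%) and highest on chromosome 6 (29.8%), with an SD of 2.42 percentage points over the 19. The density of L1Md_T regions had a rank correlation of -0.30 with the density of protein-coding genes, and that of L1Md_A regions -0.29. These values are over the 19 autosomes, which share every library. The rank correlation of L1Md_T density with L1Md_A density was 0.66. Regions inside introns were left out by the choice of regions and are not in these densities.

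The score per kb hardly varied between autosomes. The chromosome medians had a mean of 29.4 and an SD of 0.62 (n = 19). The lowest was 28.5 (chromosome 17) and the highest 30.6 (chromosome 2). Chromosome 17 also had the shortest regions, with a median of 658 bp, and chromosome 18 the longest, with 1002 bp. Along the chromosomes, cut into 5 equal parts from the centromere end, L1Md_T regions were evenly shared among the first 3 parts, at 23.8%, 22.1% and 23.0%. The fourth held 18.6% and the last 12.4%. L1Md_A gave 23.0%, 22.8%, 24.5%, 17.7% and 11.99%.

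**Figure D4:**
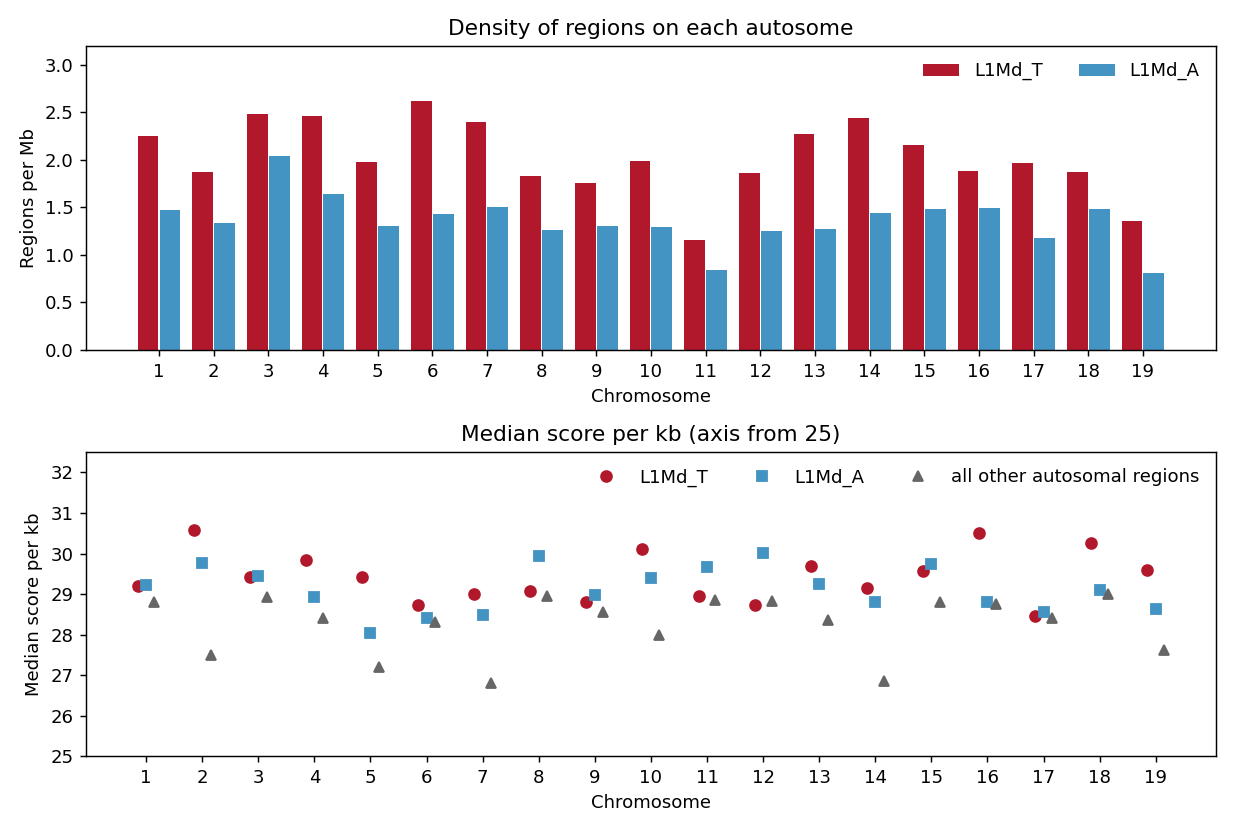
Top, L1Md_T and L1Md_A regions per Mb on each autosome; bottom, the median score per kb of L1Md_T regions, L1Md_A regions and all other autosomal regions, on an axis that does not start at 0. L1Md_T bars range from 1.16 on chromosome 11 to 2.62 on chromosome 6 and exceed L1Md_A on all 19 autosomes, while the L1Md_T medians stay between 28.5 and 30.6.

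Long stretches with genes held no L1Md_T region of this set. The longest ran over 20.2 Mb of chromosome 4 (122712396 to 142936936), which holds 336 protein-coding genes in the RefSeq table and 2 L1Md_A regions. Next came 16.7 Mb of chromosome 5 (112023459 to 128723417) with 218 genes, 1 L1Md_A region and 2 L1Md_T regions beyond the 500 kb limit, and 15.4 Mb of chromosome 11 (74309917 to 89746506) with 238 genes and 4. A stretch of 11.2 Mb on chromosome 2 (159933675 to 171083733) held 132 genes and 0 L1Md_A regions. The fifth, 10.9 Mb of chromosome 19 (40151535 to 51086621), held 130 genes and 3 L1Md_A regions, and also 7 L1Md_T regions that lay beyond the 500 kb limit. L1Md_T regions in introns are outside the set and were not counted in these stretches. For scale, chromosomes 4, 5, 11, 2 and 19 as wholes held 8.49, 8.37, 13.5, 9.96 and 12.1 protein-coding genes per Mb. Whether the stretches differ from their chromosomes in gene density was not tested. Within 500 kb to either side of an L1Md_T region lay a median of 4 protein-coding genes (quartiles 2 and 8). L1Md_A regions had the same median and quartiles, and all other autosomal regions a median of 4 (quartiles 1 and 9). No such gene lay in the window for 5.54% of L1Md_T regions, 6.55% of L1Md_A regions and 15.3% of all other autosomal regions. The first 2 of these sets were chosen to lie within 500 kb of a TSS, which limits their low end.

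At the other extreme, 5 windows of 1 Mb held 13 L1Md_T regions each. On chromosome 1, from 44 to 45 Mb, the 13 regions formed 6 groups nearest to Gulp1, an adaptor for the uptake of dying cells (7 regions), 4930521E06Rik (4) and Mettl21e, a methyltransferase-like gene (2). On chromosome 13, from 6 to 7 Mb, 7 groups lay nearest to Pfkp, a glycolytic phosphofructokinase (8 regions), and Pitrm1, a mitochondrial protease (5), with the highest summed score of the 5 windows, 716.6. On chromosome 14, from 88 to 89 Mb, all 13 regions, in 8 groups, were nearest to the protocadherin Pcdh20, and their score per kb had a median of 26.0. The window on chromosome 15, from 56 to 57 Mb, held 8 groups near Has2, a hyaluronan synthase, its antisense gene Has2os and Sntb1, a syntrophin. That on chromosome 4, from 90 to 91 Mb, held 6 groups near Elavl2, Zfp352 and Gm12633. The windows on chromosomes 4, 14 and 15 were each touched by 1 protein-coding gene, that on chromosome 13 by 2 and that on chromosome 1 by 9.

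Few regions lay close to a transcription start site. The median distance was 112.9 kb, with quartiles of 41.3 and 236.4 kb, inside the limit of 500 kb set by the choice of regions. Only 4 regions were within 2 kb of a TSS, while within 5 kb lay 61 (1.22%), within 10 kb 247 (4.94%) and within 100 kb 2307 (46.2%). The nearest 5 lay 1109 bp upstream of Impg2, a proteoglycan of the photoreceptor matrix (score 13.0), 1333 bp upstream of Olfr1180 (7.65), 1507 bp upstream of Car13, a carbonic anhydrase (35.0), 1928 bp upstream of Gm6634 (8.28) and 2013 bp upstream of Olfr707 (10.6). Regions annotated as promoters are not intergenic and so were left out by the choice of regions. The score per kb did not follow the distance, with a rank correlation of 0.01, but the 61 regions within 5 kb had a median of 26.0 (24.1 to 27.9), against 29.3 to 29.7 in each bin farther out. L1Md_A regions within 5 kb, 38 in number, had 29.3.

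Upstream of the nearest TSS lay 2948 regions (59.0%, 57.6 to 60.4%). The share was 85.2% within 5 kb, 66.9% at 10 to 50 kb, 51.9% at 200 to 300 kb, 47.2% at 300 to 400 kb and 48.5% at 400 to 500 kb. Positions downstream of a TSS and inside the gene are not intergenic and so were left out by the choice of regions. L1Md_A regions were upstream in 59.5%.

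Regions on both sides of the 500 kb limit are given for description. Just inside lay regions near 8030423J24Rik (499840 bp, 28.0 per kb), Cps1 (499661 bp, 31.8), 1700015G11Rik (499630 bp, 36.4), Ptchd4 (499227 bp, 25) and Ghitm (499025 bp, 26.9). Just outside lay regions near Cpeb2 (500177 bp, 16.1 per kb), 1700015G11Rik (501175 bp, 30.1), Cps1 (501566 bp, 28.0), Utrn (501603 bp, 34.7) and Gm12130 (501754 bp, 33.2).

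A total of 2126 genes were nearest to at least 1 L1Md_T region, and most had few. One region each was nearest to 920 genes, 966 genes had 2 to 4, and 240 had 5 or more and together took 1536 regions (30.7%). The nearest gene was protein-coding for 3961 regions (79.3%), a noncoding RNA for 895 (17.9%) and a pseudogene for 134.

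Among the 20 genes with the most regions, Elavl2 had 17 regions in 7 groups on chromosome 4 (90971269 to 91635385), at 89.8 to 400.2 kb from its TSS, with 18.3 to 54.4 per kb, a median of 27.5 and a summed score of 722.5. Pcdh20 had 13 in 8 groups on chromosome 14 (88076818 to 88940470), with a median length of 500 bp and a median of 26.0 per kb. The RIKEN gene 4930459L07Rik had 12 in 7 groups, with a median of 32.0 per kb. With 11 regions came Celf2, a splicing regulator, whose regions all lay upstream, at 20.7 to 264.5 kb, and Zc3h15, a CCCH zinc finger gene, with all 11 upstream and a median length of 1248 bp. Also with 11 were 1700008P02Rik, Fam181b, Gm5803, Mir6414 and Gm8096, a pseudogene of 3-phosphoglycerate dehydrogenase. The 11 regions of Gm5803 formed only 4 groups.

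Genes with 10 regions were Adcyap1, the gene of the neuropeptide PACAP (median 30.6 per kb), Lrrc4c, a synaptic adhesion protein (33.9), Prdm13, a PR domain transcription regulator (28.3), the noncoding genes Mir6350, Mir6373 and Rprl1, and the genes Gm20362 and 4930556G01Rik. The last of the 20 genes, taken in alphabetical order among those with 9 regions, were 4930545E07Rik and Arhgef26. The median score per kb ran from 26.0 to 33.9 over the 20 genes. Regions of any kind in the list with the same nearest gene ran from 11 (Mir6373 and Arhgef26) to 62 (Lrrc4c). They numbered 23 for Elavl2, 19 for Pcdh20 and 24 for 1700008P02Rik. L1Md_A regions numbered 2 for Elavl2, 3 for Pcdh20, 10 for 1700008P02Rik, 10 for Lrrc4c and 0 for Mir6373.

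**Figure D5:**
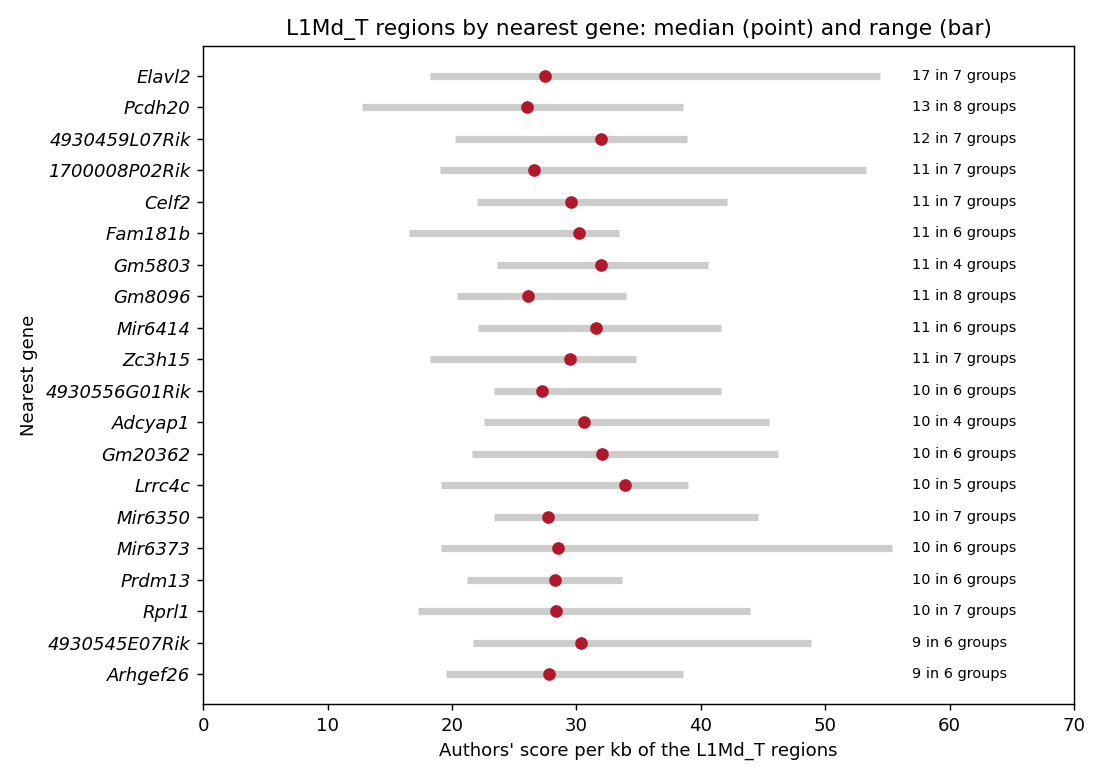
The 20 genes nearest to the most L1Md_T regions, with the median (point) and the range (bar) of the score per kb of those regions; the number of regions and of groups stands at the right. Medians lie between 26.0 (Pcdh20) and 33.9 (Lrrc4c), and the bars of all 20 genes overlap.

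By gene family, 37.7% of the L1Md_T regions had a nearest gene in 1 of 16 families named by symbol. The share was 36.7% for L1Md_A, 38.9% for other intergenic regions within 500 kb and 36.3% for all other autosomal regions, so it lay near the background. The 7956 other intergenic regions within 500 kb include the 3344 L1Md_A regions. All other autosomal regions include those and the remaining L1Md_T regions. Olfactory receptors, the odorant receptors of the nose, were nearest to 170 L1Md_T regions (3.403%, 2.94 to 3.94%). L1Md_A had 3.23%, inside that interval, other intergenic regions within 500 kb 2.71% and all other autosomal regions 1.63%. The 170 regions formed 122 groups on 15 chromosomes and lay at a median of 12.2 kb from the TSS. For the pheromone receptor family Vmn1r the share was 1.16% (58 regions), against 1.80% of other intergenic regions within 500 kb and 1.01% of all other autosomal regions. For Vmn2r it was 1.08% (54 regions), against 1.72% and 1.26%.

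Cadherins, cell adhesion proteins, had 54 L1Md_T regions (1.08%), against 0.804% of other intergenic regions within 500 kb and 1.72% of all other autosomal regions. In the same order, contactins had 26 (0.520%), against 0.277% and 0.796%, and glutamate receptors had 33 (0.660%), against 0.339% and 0.600%. Potassium channels had 50 (1.001%), against 0.679% and 0.715%. Zinc finger genes and solute carriers had 55 each (1.10%), against 1.56% and 1.17% for zinc finger genes and 1.43% and 1.32% for solute carriers. Predicted genes (Gm) took 442 (8.85%), against 10.1% and 8.27%. RIKEN clones took 678 (13.6%), against 13.4% and 13.0%, and microRNA genes 167 (3.34%), against 3.28% and 4.001%. Which side was higher thus depended on which of these backgrounds was used for Vmn1r, cadherins, contactins, Gm genes, microRNA genes and beta-defensins. Cytochrome P450 genes had 21 (0.420%), against 0.503% and 0.466%, and ADAM proteases had 10 (0.2002%), against 0.126% and 0.108%. SOX factors had 6 (0.120%), against 0.138% and 0.148%, and beta-defensins 3 (0.060%), against 0.0754% and 0.054%. In L1Md_A the shares were 1.495% for Vmn1r, 1.26% for Vmn2r, 0.748% for cadherins, 0.419% for contactins and 0.389% for glutamate receptors. Potassium channels had 0.807% there, zinc finger genes 1.376%, solute carriers 1.585%, Gm genes 7.955%, RIKEN clones 12.77% and microRNA genes 3.798%. Cytochrome P450 genes had 0.4187% there, ADAM proteases 0.239%, SOX factors 0.1196% and beta-defensins 0.0897%. ADAM proteases were thus higher in L1Md_A. The median score per kb lay between 27.5 (contactins) and 33.6 (beta-defensins) in all 16 families. Members of a family lie in clusters, and no enrichment was tested.

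Few of the genes known to silence L1 elements had one of these regions nearby. Of 38 listed genes, which include Phf13 as the gene of the protein studied and not as a known silencer, 37 lie on autosomes, and 3 of them (8.11%) had an L1Md_T region within 100 kb of the gene body. Over all 20560 autosomal protein-coding genes the share with one was 16.8%, or 3447 genes. The difference rests on few genes and was not tested. Dnmt3c was matched through the symbol Dnmt3b-ps1 and has the same nearest region as Dnmt3b. Piwil1, a PIWI protein of spermatids, had a region of 919 bp at 12.2 kb on chromosome 5 (128723417 to 128724336, 31.0 per kb). Asz1, which acts in piRNA production, had 3 within 100 kb, the nearest at 29.3 kb on chromosome 6 (18138014 to 18138672, 22.9 per kb). Tex15, needed for DNA methylation directed by piRNAs, had 2, the nearest at 52.6 kb on chromosome 8 (33463751 to 33464379, 24.4 per kb). The other 34 had none within 100 kb, among them Mael at 182.0 kb, Trim28 at 196.3 kb, Dnmt3l at 668.2 kb, Setdb1 at 1035 kb and Phf13 itself at 2728 kb. The farthest was Tex19.1, at 8768 kb.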

How the data were processed

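One region list covers all libraries; per the file headers it is output of the HOMER annotation program for build mm10. Per the submitters' processing notes, Bowtie2 2.2.2, SAMtools and HOMER 4.6 were used; the roles of these tools, the peak settings and the libraries behind the regions were not given in the sources used here. Each region has the authors' score, whose unit the deposited headers do not state, and lengths, positions and distances in bp. The score was divided by length. There are 0 columns per library, so depth and precision per library are unknown.

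Genes came from the RefSeq table of the assembly that mm10 names (GRCm38.p6); 2114 of the 2126 nearest gene IDs matched. Genes with a start under 3 Mb were not used, since their coordinates may be those of scaffolds. A chromosome's span ran from its first to its last gene or region. Median intervals are 95% binomial order-statistic intervals. The named genes were the 20 nearest to the most regions, the nearest genes of the regions ranked first by score per kb, score, length or TSS distance and beside the limit, those of the 5 densest megabase windows, and silencing genes within 100 kb of a region; others were named after their values were seen. The grouping code was checked on simulated regions with well separated groups, which cannot show whether the groups in these data are right. The regions, gene lists and measures were chosen with earlier results of these data known. No sequence is printed, since no genome was used here. Calculations used SciPy 1.17.1, NumPy 2.4.6 and pandas 2.3.3 under Python 3.11.15, and plots matplotlib 3.10.9.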

Additional observations from a re-analysis of the deposited data

How the results depend on the processing

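Limits: the list has no replicate, so every value describes 1 list, and region length follows an unstated region finding. No paired analysis was possible because each region has 1 score and no library its own; hence no replicate could be left out. The chromosome length from a genome was not run as an alternative. Of 49 alternatives, 18 stayed within the counting interval or within 1.5 times the count, 29 moved and 2 reversed. With the 50% of the list with the higher score, L1Md_T regions numbered 3243 at 1.32 per Mb, with medians of 1126 bp, 31.4 per kb and 16380 bp to the nearest. With any annotation class the median length was 804 bp, and without 500 bp regions 1053 bp and 30.2 per kb. Without the longest 10% the median was 28.9 per kb. Against L1Md_A the log2 ratio was 0.051 for score, 0.043 at 500 bp, 0.049 above 4000 and up to 6000 bp and 0.054 for longer regions, with 1 L1Md_A region. Against all other autosomal regions it was 0.28 for score, 0.17 at 500 bp, 0.024 above that and up to 1000 bp, 0.022 above 4000 and up to 6000 bp and 0.11 for longer regions. It reversed to -0.0082 above 1000 and up to 2000 bp and to -0.013 from there up to 4000 bp. The nearest neighbour lay at 2736 bp end to end and at 3612 bp over the whole list. The share with a neighbour was 54.7%, 59.9% and 67.9% within 5, 20 and 50 kb. The TSS distance was 97.7 kb to a gene end and 155.1 kb without the limit, and 66.1% lay upstream within 100 kb. With links of 3 and 10 kb, chosen after the data were seen, 99.3% and 90.98% of groups of 2 or more spanned at most 6500 bp, and the excess over L1Md_A above 5000 and up to 6500 bp, 7.79 percentage points with 5 kb, was 3.14 with 3 kb. The cause was not tested for any shift.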

Other observations

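Chromosome X held 863 further intergenic L1Md_T regions, counted at any distance from a TSS and outside the autosomal set. Their median length was 783 bp, against 784 bp for the 5995 autosomal intergenic L1Md_T regions at any distance. Longer than 5000 bp were 4.17% on X, against 3.503% on the autosomes. Score per kb had a median of 27.2 on X (95% interval 26.5 to 27.8) and 29.5 on the autosomes (29.3 to 29.7). The difference was not tested, since the list has no replicate.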
